A study of Mus musculus with 72 samples.

Results

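*Cacna2d4*, which encodes the α2δ-4 auxiliary subunit of voltage-gated calcium channels, and 7 further genes of the skeletal muscle calcium channel complex were followed across mice that lack the clock factor *Bmal1* (*Arntl*). The 8 genes are *Cacna2d4*, *Cacna2d1*, *Cacna1s*, *Cacna1c*, *Cacnb1*, *Cacng1*, *Cacng6* and *Ryr1*. They were chosen by symbol, matched to the Ensembl identifiers of the deposited tables, and are 8 of the 55401 genes measured. *Cacna2d4* was chosen because its level differed between groups at 10 weeks of age, so its 10-week values are given below as a description without a test. Its 40-week values come from other mice. Earlier results of these data were known when it was chosen, so their P values are not an independent test. The other members were tested in every comparison except *Cacng1* in heart, where it was too low to test.

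All mice were male. The study's methods describe *Bmal1*-KO mice bred from heterozygous parents, in which *Bmal1* is missing from every tissue and not from muscle alone. WT mice carried intact *Bmal1*. *Bmal1*-KO+AAV mice were *Bmal1*-KO mice that received at postnatal day 5 an adeno-associated virus (AAV9) carrying an HA-tagged *Bmal1* cDNA behind CK6, a constitutive muscle promoter, so that the returned BMAL1 is limited to the cells in which CK6 is active and is not under its own promoter. In gastrocnemius at 10 weeks there were 6 WT, 6 KO and 7 KO+AAV libraries, sequenced at ICBR (3, 3 and 4 libraries) or Novogene (3 each), and at 40 weeks there were 5 libraries of each group, all from Novogene. A separate experiment compared 3 libraries of KO mice given the same type of virus carrying GFP (KO+GFP) with 3 of KO controls at 10 weeks. Heart was compared at 40 weeks in 4 KO and 4 KO+AAV libraries, with no WT hearts. Gastrocnemius libraries of the main experiment held 9325122 to 41733282 reads in genes, those of the GFP experiment 6754312 to 8515400 and heart libraries 36903079 to 48641965.

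The skeletal muscle calcium channel sits in the transverse tubule and works mainly as a voltage sensor. *Cacna1s* encodes the pore and voltage-sensing α1 subunit, *Cacnb1* the intracellular β subunit, *Cacna2d1* the extracellular α2δ-1 subunit and *Cacng1* the γ subunit, and the complex is coupled to *Ryr1*, the ryanodine receptor through which the sarcoplasmic reticulum releases calcium for contraction. *Cacna1c* encodes the corresponding α1 subunit of the heart and of smooth muscle, and *Cacng6* a γ subunit found in striated muscle. *Cacna2d4* is best known for its role in photoreceptors of the retina. *Bmal1* encodes a transcription factor that, with a partner, binds E-box elements to drive clock-controlled genes.

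Sequence is shown for *Lrtm2*, the nested neighbor of *Cacna2d4*, and for *Cacna1s* and *Cacnb1*, the members other than *Cacna2d4* that were called between WT and KO at 10 weeks. The stretches are from RefSeq (GRCm38.p6), 5′ to 3′ on the strand of the gene. Those of *Cacna1s* and *Lrtm2* lie just before the first annotated base of the gene. That of *Cacnb1* lies just before the base at which 3 of its protein-coding transcripts start (98022634), inside the annotated gene, since a longer noncoding transcript starts at 98023034. Capitals mark matches to CANNTG, the general E-box, in *Cacna1s* and *Lrtm2*, to CATTCC or its reverse complement, the core of the TEAD binding motif, in *Cacna1s*, and to CACGTT, which differs by a base from the canonical E-box CACGTG, in *Cacnb1*.
*Cacna1s*, chr1:136052561-136052749, + strand: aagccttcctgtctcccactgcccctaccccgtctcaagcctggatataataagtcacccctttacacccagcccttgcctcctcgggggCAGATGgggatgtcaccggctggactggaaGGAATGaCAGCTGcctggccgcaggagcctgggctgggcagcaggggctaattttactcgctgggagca
*Lrtm2*, chr6:119330767-119331016, - strand: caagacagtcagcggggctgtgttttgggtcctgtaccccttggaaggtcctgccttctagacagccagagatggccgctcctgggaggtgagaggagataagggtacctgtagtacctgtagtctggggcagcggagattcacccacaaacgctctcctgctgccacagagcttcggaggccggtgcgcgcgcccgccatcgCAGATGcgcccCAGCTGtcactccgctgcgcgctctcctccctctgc
*Cacnb1*, chr11:98022635-98022877, - strand: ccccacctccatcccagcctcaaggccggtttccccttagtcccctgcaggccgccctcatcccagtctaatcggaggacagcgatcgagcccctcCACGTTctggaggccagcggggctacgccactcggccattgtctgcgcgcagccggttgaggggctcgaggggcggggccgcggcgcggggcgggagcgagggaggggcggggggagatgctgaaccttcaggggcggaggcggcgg
In *Cacna1s* the letters CAGATG begin 99 bases, GGAATG 69 bases and CAGCTG 62 bases before the gene. In *Lrtm2* CAGATG begins 47 and CAGCTG 36 bases before the gene, and in *Cacnb1* CACGTT begins 147 bases before the first exon of those protein-coding transcripts. CACGTG was in none of the 9 windows that the table held for 6 of the 8 members, on either strand. Of all 32851 windows of the same 300 bases, 7.15% held it. At that share 9 windows are too few to show a lack. CACGTT was in 4.68%, CATTCC in 14.7% and CANNTG, which also takes in CACGTG, in 72.3% of all windows, so an E-box of the general form is not particular to these genes. The window of *Cacng6*, a member not called between WT and KO at either age, also held 1 match to CACGTT and 1 to CATTCC. A match describes letters and is not a measured binding site. *Cacna2d4* and *Cacng1* were not in the window table.

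*Cacna2d4* (ENSMUSG00000041460) lies on chromosome 6, from 119236526 to 119352407 on the + strand (GRCm38, GENCODE vM21). *Cacna1c* (ENSMUSG00000051331, - strand) lies from 118587240 to 119196418 on the same chromosome, so that both genes start near each other and run in opposite directions. *Cacna1s* (ENSMUSG00000026407) lies on chromosome 1 (136052750 to 136119822, + strand), *Cacna2d1* (ENSMUSG00000040118) on chromosome 5 (15934691 to 16374511, + strand), *Cacnb1* (ENSMUSG00000020882) and *Cacng1* (ENSMUSG00000020722) on chromosome 11 (98001508 to 98023034 and 107703218 to 107716522, both - strand), and *Cacng6* (ENSMUSG00000078815) and *Ryr1* (ENSMUSG00000030592) on chromosome 7 (3424195 to 3435667, + strand, and 29003344 to 29125179, - strand). A share of 19.98% of the exon bases of *Cacna1s* overlaps *Gm37759* on the other strand, and 4.19% of those of *Ryr1* and 1.77% of those of *Cacnb1* overlap other genes; whether reads were counted by strand is not stated, so reads of these stretches could not be assigned with certainty.

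The *Bmal1* transcript itself was read first, as a check of the labels. At 10 weeks *Arntl* lay between 402 and 634 normalized counts in the 6 WT gastrocnemius libraries, between 196 and 296 in KO and between 169 and 281 in KO+AAV. Normalized counts are reads divided by the library's size factor and are not corrected for gene length. WT stood above the other groups with no overlap, and KO and KO+AAV overlapped throughout. At 40 weeks WT held 608, 589, 573, 571 and 480, KO+AAV 298, 268, 317, 359 and 313, and KO 381, 1039, 395, 312 and 308. The library labelled KO replicate 2 at 40 weeks therefore held more *Arntl* than any WT library. In the same library *Cacna2d4* was at 0, and the clock gene *Per3* and the clock output gene *Dbp*, looked at after their values were seen, were at 3.58 and 32.2, the lowest of the KO group. Counts over the whole gene do not separate transcripts of the disrupted allele or of the virus from intact ones, so they check the labels only in part. The 40-week comparisons with KO were therefore repeated without it, and changes are stated with the results they touch.

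The tissue matched its label in all 34 gastrocnemius libraries, where *Myh4*, the myosin heavy chain of the fastest fibers, lay between 212270 and 1266820 normalized counts and the cardiac gene *Myh6* reached at most 92.4. Among the hearts 1 library stood apart. KO heart replicate 2 held 859141 normalized counts of the liver gene *Alb*, against 153 to 216 in the other 7 hearts, and 476578 of *Myh6*, against 915092 to 1312760. Heart results are given with and without it.

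In WT gastrocnemius *Cacna2d4* was a clearly detected transcript, and in KO muscle it was close to absent at both ages. At 10 weeks the WT libraries held 424, 450, 361, 233, 375 and 203 normalized counts, the first 3 from ICBR and the others from Novogene. The KO libraries held 2.36, 5.26, 5.40, 4.71, 0 and 5.05, which correspond to 0 to 14 reads each. The KO+AAV libraries held 10.9, 13.3, 19.0, 9.95, 8.85, 14.5 and 11.2. None of the 3 groups overlapped, with means of 341 ± 101 (SD, n = 6) in WT, 3.80 ± 2.17 (n = 6) in KO and 12.5 ± 3.44 (n = 7) in KO+AAV. In bulk muscle, fewer cells of a type and less RNA per cell cannot be told apart.

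The order WT, KO+AAV, KO was the same at both sequencing sites at 10 weeks, where WT held 361 to 450 at ICBR and 203 to 375 at Novogene, KO+AAV 9.95 to 19.0 and 8.85 to 14.5, and KO 2.36 to 5.40 and 0 to 5.05. Summed over the libraries, 3300 reads of WT stood against 37 of KO and 134 of KO+AAV, which per read sequenced is 88.8 times as many in WT as in KO (95% exact interval 64.3 to 126) and 3.01 times as many in KO+AAV as in KO (2.08 to 4.45). These intervals cover counting error only, and neither they nor the log2 differences of 6.33 (SE 0.47) and 1.66 (SE 0.45) are tests, since these values chose the gene. KO+AAV stood 29.5 times below WT in summed reads (24.8 to 35.4).

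At 40 weeks, in other mice, WT held 185, 208, 108, 191 and 164 normalized counts of *Cacna2d4*, KO held 2.75, 0, 1.53, 0 and 2.76, and KO+AAV held 3.19, 0, 6.66, 15.3 and 5.99. Every WT library exceeded every library of both other groups, while KO and KO+AAV overlapped. WT exceeded KO by a log2 difference of 6.36 (SE 0.51, adjusted P = 1.07e-10, limma with Benjamini-Hochberg adjustment) and KO+AAV by 5.03 (SE 0.51, adjusted P = 3.92e-08, limma). Since the members were chosen with earlier results known, these P values are given as a description. KO+AAV against KO gave a log2 difference of 1.33 (95% interval 0.28 to 2.39, unadjusted P = 0.0142, adjusted P = 0.355, limma), which did not pass the test, and the KO reads behind it number 5 in all, against 23 in KO+AAV. All of these log2 differences are on the log2(normalized count + 1) scale, which understates the change of low genes, and the summed reads gave 114 times as many in WT as in KO (48.5 to 352). Without KO replicate 2 the WT against KO difference was 6.10 and that of KO+AAV against KO 1.08.

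Ordered by mean, the 6 gastrocnemius groups ran WT at 10 weeks (341), WT at 40 weeks (171), KO+AAV at 10 weeks (12.5), KO+AAV at 40 weeks (6.22), KO at 10 weeks (3.80) and KO at 40 weeks (1.41). Of the neighbors in this order only WT at 40 weeks and KO+AAV at 10 weeks did not overlap. Within each genotype the 40-week mean was lower than the 10-week mean, by log2 differences of -0.73 (WT, SE 0.53), -0.76 (KO, SE 0.53) and -1.08 (KO+AAV, SE 0.52), and the libraries of both ages overlapped in each. The WT against KO difference was 0.03 larger at 40 weeks than at 10 weeks (95% interval -1.40 to 1.46), given as a description because the 10-week values enter it; without KO replicate 2 it was -0.22.

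**Figure D1:**
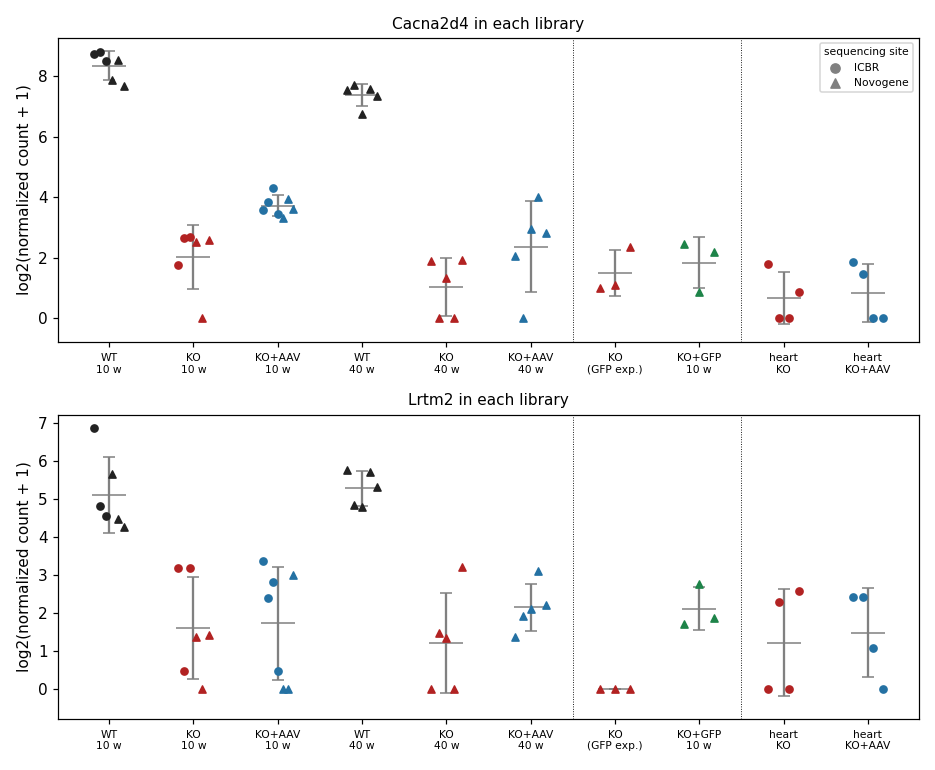
Log2(normalized count + 1) of *Cacna2d4* (top) and *Lrtm2* (bottom) in each library of gastrocnemius at 10 and 40 weeks (w), the GFP experiment and heart, with horizontal bars for the group mean, whiskers for the SD of the log2 values and symbols for the sequencing site. WT libraries stand above the rest in both panels; dotted lines separate tables or tissues whose levels should not be compared with each other.

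Per length, *Cacna2d4* was a minor α2δ transcript even where it was highest. It reached 2.17 ± 0.62 RPKM (reads scaled to the length of the exons and to the reads in genes) in WT at 10 weeks, where *Cacna2d1* held 94.6% of the summed RPKM of the 4 α2δ genes and *Cacna2d4* 4.92% ± 1.19 (SD, n = 6). At 40 weeks its share in WT was 2.63% ± 0.73 (n = 5). In KO it was 0.0634% ± 0.036 and 0.0357% ± 0.0347, and in KO+AAV 0.202% ± 0.0445 and 0.144% ± 0.152, at 10 and 40 weeks. *Cacna2d2* and *Cacna2d3* reached at most 0.399% and 0.380% of the sum as a group mean over the 6 groups, so *Cacna2d1*, the α2δ subunit of the classical muscle channel, made up nearly all of the rest.

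Clock genes known to depend on BMAL1 are set beside it here as values only, since they were looked at after the data were seen. *Per3* held 230, 26.2 and 202 normalized counts on average in WT, KO and KO+AAV at 10 weeks, and *Nr1d2* 1738, 253 and 1010. *Cacna2d4* held 341, 3.80 and 12.5. The ratio of the KO+AAV mean to the WT mean was thus 0.0367 for *Cacna2d4*, 0.879 for *Per3* and 0.581 for *Nr1d2*. At 40 weeks these ratios were 0.0363, 0.362 and 0.397.

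*Lrtm2*, a leucine-rich repeat transmembrane protein gene that lies inside *Cacna2d4* on the other strand (chromosome 6, 119315133 to 119330766) and shares no exon base with it, stood out among the neighbors. Its annotated start lies 3 bases from the start of a noncoding *Cacna2d4* transcript on the opposite strand (119330769), and 131 bases of the *Lrtm2* stretch printed above are exon of that transcript. At 10 weeks *Lrtm2* had a lowest, median and highest value of 18.2, 24.8 and 116 normalized counts in WT and ranged from 0 to 8.10 in KO and from 0 to 9.39 in KO+AAV. WT did not overlap the other groups. The log2 difference was 3.51 (SE 0.60, adjusted P = 0.000124) for WT against KO and 3.46 (SE 0.58, adjusted P = 0.000209) for WT against KO+AAV, whereas KO+AAV against KO gave 0.04 (95% interval -1.14 to 1.23, adjusted P = 0.993, limma throughout). At 40 weeks WT held 53.4, 27.6, 26.5, 51.6 and 39.1, against 0 to 8.27 in KO and 1.59 to 7.63 in KO+AAV, and the differences from WT were 4.08 (SE 0.65, adjusted P = 2.52e-05, limma) for KO and 3.14 (SE 0.65, adjusted P = 0.00131, limma) for KO+AAV. KO+AAV held 14 reads in all and KO 8 at this age. Without KO replicate 2, KO+AAV against KO gave 1.01 (adjusted P = 0.677, limma). *Lrtm2* passed the filter on the mean over all libraries through its WT values; with no filter the calls from WT against KO and KO+AAV stood (adjusted P = 0.00036 and 0.000563 at 10 weeks, 7.39e-05 and 0.00318 at 40 weeks, limma).

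Of the 9 annotated genes whose start or end lies within 500 kb of *Cacna2d4*, 8 were expressed highly enough to test. *Dcp1b* (mRNA decapping) and *Cacna1c*, on the near side, and *Adipor2* (an adiponectin receptor) were not called in WT against KO at either age, with log2 differences between -0.14 and 0.27; the upper end, *Cacna1c* at 40 weeks, was 0.10 without KO replicate 2. *Wnt5b*, a secreted WNT ligand, was lower in WT (-1.52 at 10 weeks, adjusted P = 0.015, and -1.40 at 40 weeks, adjusted P = 0.0213). *Fbxl14*, an F-box protein gene, was higher in WT at 40 weeks (0.75, adjusted P = 0.000593) and gave 0.44 at 10 weeks (adjusted P = 0.0516). *Gm44317*, an antisense gene, gave 0.42 (adjusted P = 0.0437) and 0.39 (adjusted P = 0.0521), and *Erc1*, a presynaptic scaffold gene, 0.27 (adjusted P = 0.0888) and 0.34 (adjusted P = 0.0183). At 10 weeks *Gm44317* held 0.449 to 249 normalized counts in WT and 0 to 227 in KO, so some libraries lay near the floor. Its values at 40 weeks were 249 to 273 in WT and 161 to 248 in KO. Without KO replicate 2 at 40 weeks *Erc1* was not called (0.25, adjusted P = 0.0813), while *Lrtm2* (4.15), *Wnt5b* (-1.50) and *Fbxl14* (0.55) still were. All P values in this paragraph are from limma over all genes.

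The core subunits were abundant in gastrocnemius. As means over the 34 libraries *Ryr1* held 222 RPKM, *Cacng1* 194, *Cacna1s* 185, *Cacng6* 76.4, *Cacnb1* 40.9, *Cacna2d1* 37.5 and the cardiac α1 gene *Cacna1c* 0.202. The order of *Ryr1*, *Cacng1* and *Cacna1s* varied between groups. *Cacna2d4*, at 2.17 RPKM in WT at 10 weeks and 0.0247 in KO, stood above *Cacna1c* in WT (0.206) and below it in KO (0.218). These are levels per length, and the differences of the core subunits between WT and KO were small beside that of *Cacna2d4*. In WT against KO at 10 weeks 2 of the 7 tested members were called, both lower in WT, where 8% of all 16199 genes tested were called in one direction or the other (4.26% higher and 3.74% lower in WT). The median log2 difference of the 7 was -0.19 against -0.01 over all genes.

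*Cacna1s* held a lowest, median and highest value of 16112, 17722 and 19220 normalized counts in WT and 19355, 24995 and 30609 in KO at 10 weeks. The groups did not overlap, and KO was 1.39 times WT by mean (log2 difference of WT against KO -0.46, SE 0.11, adjusted P = 0.00676, limma). The size differed between sites. At ICBR WT held 17589 to 17799 and KO 26693 to 30609 (log2 difference -0.68, adjusted P = 0.0206, limma on the ICBR libraries), whereas at Novogene WT held 16112 to 19220 and KO 19355 to 23298 (-0.25, adjusted P = 0.65). The site term of the model was 0.27 for *Cacna1s* (ICBR minus Novogene, adjusted P = 0.0217) and 0.35 for *Ryr1* (adjusted P = 0.0097). By mean, *Cacna1s* was higher at ICBR in KO (28282 against 21195) and KO+AAV (22398 against 17031) but not in WT (17677 against 17824), and 3726 of the 16199 genes differed between sites in one direction or the other. KO+AAV lay between the other groups, with 15340, 20537 and 25677 as its lowest, median and highest values, and overlapped both (KO+AAV against KO -0.32, unadjusted P = 0.00575, adjusted P = 0.316, limma).

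*Cacnb1*, the β subunit gene, was lower in WT than in KO at both ages. At 10 weeks it held a lowest, median and highest value of 2653, 2887 and 3085 normalized counts in WT and 3590, 3727 and 3778 in KO, with no overlap in all libraries or within either site (-0.37, SE 0.09, adjusted P = 0.00698, limma). Within sites the log2 difference was -0.39 at ICBR (adjusted P = 0.0498) and -0.35 at Novogene (adjusted P = 0.327). At 40 weeks WT held 2295, 2113, 2363, 2521 and 2204, KO 3260, 2282, 3006, 2746 and 2947, and KO+AAV 2966, 2001.4, 2998, 2820 and 3077. The lowest KO library, replicate 2, fell inside the WT range, and WT remained lower than KO (-0.30, SE 0.10, adjusted P = 0.0239, limma). The difference was -0.38 without KO replicate 2 (adjusted P = 0.0046). It was no longer called without WT replicate 2, KO replicate 1 or KO replicate 3 (-0.27, -0.25 and -0.28, adjusted P = 0.061, 0.0743 and 0.0533, limma). Nor was it called with the Novogene libraries alone (-0.30, adjusted P = 0.0606, limma). WT against KO+AAV did not pass the test at either age (-0.24, adjusted P = 0.116, and -0.26, adjusted P = 0.0846). With the replicate number as a block it was called at both ages (-0.24 and -0.26, adjusted P = 0.0412 and 0.0334, limma). At 40 weeks it was called without KO+AAV replicate 2, the lowest library of its group (-0.37, adjusted P = 0.00393), and with DESeq2 (adjusted P = 0.0448).

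*Cacna2d1* did not differ detectably at 10 weeks, where WT held 6743 to 9555 normalized counts and KO 7119 to 9587 (0.08, 95% interval -0.20 to 0.37). At 40 weeks WT held 10349, 7699, 8901, 8737 and 6593, KO 5829, 5568, 4748, 8314 and 4734, and KO+AAV 7926, 7416, 6181, 5006 and 5852. KO replicate 4 exceeded WT replicates 2 and 5, the other KO libraries lay below every WT library, and WT was 1.45 times KO by mean (0.55, SE 0.15, adjusted P = 0.00844, limma). The call held with each library left out in turn, with log2 differences of 0.47 to 0.69. KO+AAV lay between them (WT against KO+AAV 0.39, adjusted P = 0.0943), and KO+AAV against KO gave 0.16 (95% interval -0.15 to 0.48). WT against KO+AAV was called without WT replicate 5 (0.47, adjusted P = 0.0477, limma).

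Counting *Cacna2d4*, 3 of the 8 members were called in WT against KO at 40 weeks (2 higher and 1 lower in WT), where 23.5% of all genes were (12% higher and 11.5% lower). They were *Cacna2d4*, *Cacna2d1* and *Cacnb1*. In WT against KO+AAV 1 of 8 was called, *Cacna2d4* itself, where 12.5% of all genes were. *Cacna2d4* was chosen for a difference between groups, so its call adds nothing when these counts are set beside the shares of all genes. In KO+AAV against KO 0 of the 7 tested members were called at 10 weeks and 0 of 8 at 40 weeks, where 0.204% and 0.259% of all genes were. An unadjusted P under 0.05 was found for 1 member in each, and for 1495 and 1631 of all 16199 genes. In WT against KO+AAV at 10 weeks 0 of 7 were called (5.15% of all genes), with *Cacnb1* alone at an unadjusted P under 0.05, a level that 2940 of all 16199 genes reached.

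The γ subunit genes, *Cacna1c* and *Ryr1* were not called between genotypes at either age. *Cacng1* held 1894 to 3742 normalized counts in WT and 3112 to 5186 in KO at 10 weeks (-0.26, 95% interval -0.70 to 0.18) and 2910 to 4716 and 2969 to 5694 at 40 weeks (-0.23, -0.71 to 0.26). *Cacng6* held 1758 to 2689 and 2117 to 3054 at 10 weeks (-0.07, -0.40 to 0.27) and 2179 to 3017 and 1021 to 2880 at 40 weeks (0.36, -0.01 to 0.72). The 40-week differences were -0.15 for *Cacng1* and 0.11 for *Cacng6* without KO replicate 2. *Cacna1c* was low, with 50.8 to 89.8 in WT and 65.9 to 99.2 in KO at 10 weeks (-0.07, -0.55 to 0.41). *Ryr1* held 76184 to 92834 in WT and 66398 to 111172 in KO at 10 weeks (-0.19, -0.45 to 0.08) and gave 0.21 (-0.08 to 0.50) at 40 weeks. Changes within these intervals were not detectable here.

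**Figure D2:**
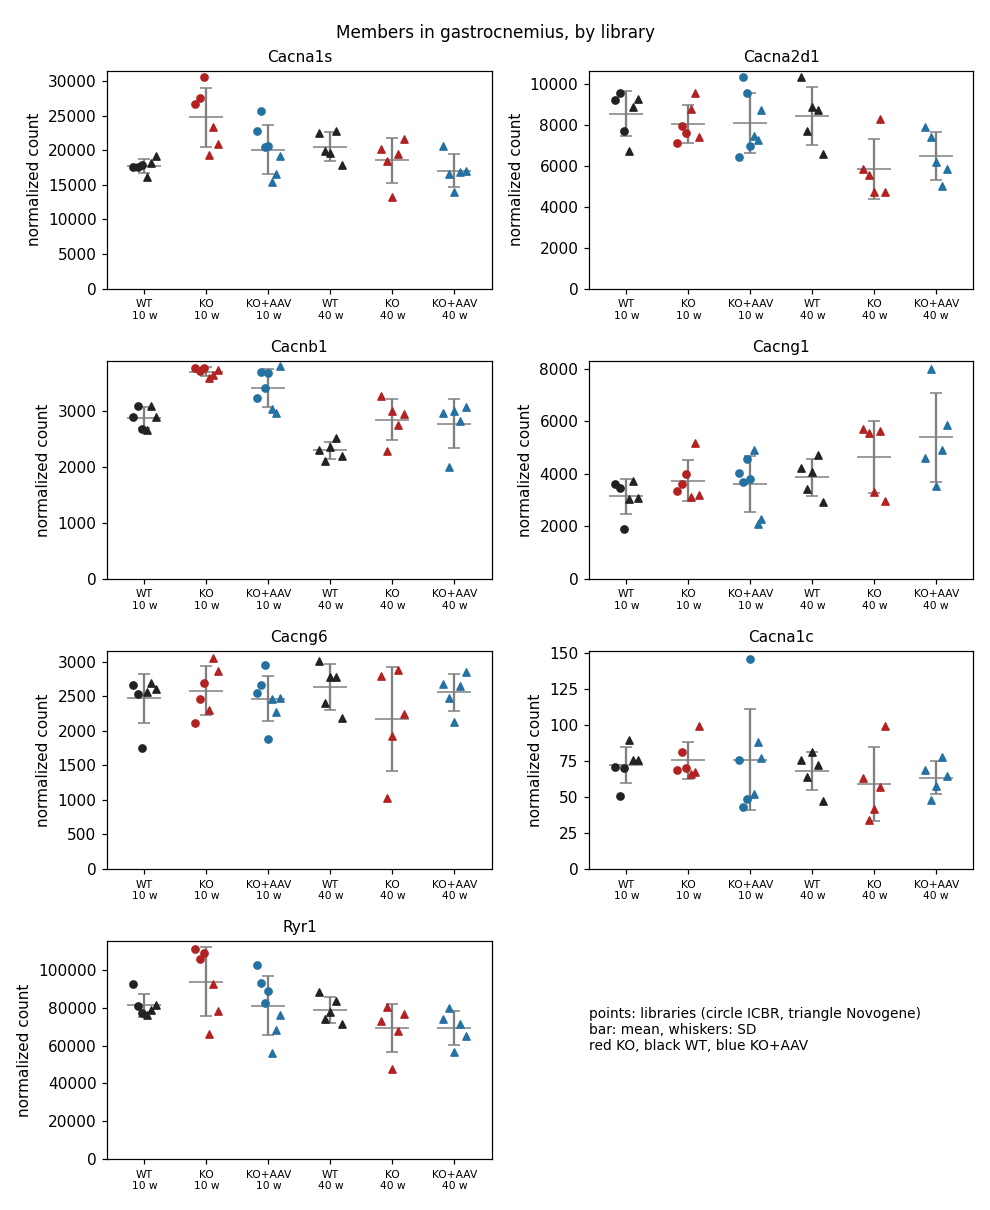
Normalized counts of the 7 other members in each gastrocnemius library at 10 and 40 weeks (w), with bars for the mean, whiskers for the SD and symbols for the sequencing site. *Cacna1s* and *Cacnb1* lie lower in WT than in KO at 10 weeks with no overlap, and *Cacna2d1* lies lower in KO at 40 weeks with an overlap.

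With age, 0 of the 7 tested members were called in WT (0.148% of all genes), 2 of 7 in KO (8.31%) and 0 of 7 in KO+AAV (8.53%). In KO *Cacna2d1* was lower at 40 than at 10 weeks (-0.49, SE 0.16, adjusted P = 0.0465, limma) and so was *Cacnb1* (-0.36, SE 0.10, adjusted P = 0.0235, limma). Without KO replicate 2 at 40 weeks neither was called (*Cacna2d1* -0.48, adjusted P = 0.105, and *Cacnb1* -0.29, adjusted P = 0.101, limma). *Cacna2d1* also lost its call without KO replicate 1, 3 or 5 (-0.50, -0.43 and -0.43, adjusted P = 0.0584, 0.103 and 0.0882), with edgeR (-0.46, 0.0668) and without a filter (-0.49, 0.0866). Within Novogene, the site of all 40-week libraries, neither passed the test (*Cacna2d1* -0.58, adjusted P = 0.0801, and *Cacnb1* -0.37, adjusted P = 0.114). In WT *Cacnb1* gave -0.30 (unadjusted P = 0.00566, adjusted P = 0.368), with every 40-week library below every 10-week library, and in KO+AAV -0.28 (adjusted P = 0.0768). The 40-week libraries were all from Novogene, and the age comparisons include the site as a term.

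The WT against KO difference of *Cacna1s* was -0.46 at 10 weeks and 0.16 (95% interval -0.09 to 0.41) at 40 weeks. The change of the difference with age was 0.62 (SE 0.17, unadjusted P = 0.000732, adjusted P = 0.0906, limma) and did not pass the test. Within Novogene it was 0.41 (adjusted P = 0.62, limma). It was called with DESeq2 (0.60, adjusted P = 0.0275) and without KO replicate 5 at 40 weeks (0.68, adjusted P = 0.0369, limma). By limma over all libraries none of the 7 tested members was called for such a change, where 0.37% of all genes were. An unadjusted P under 0.05 was found for 3 members and for 2111 of all 16199 genes.

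**Figure D3:**
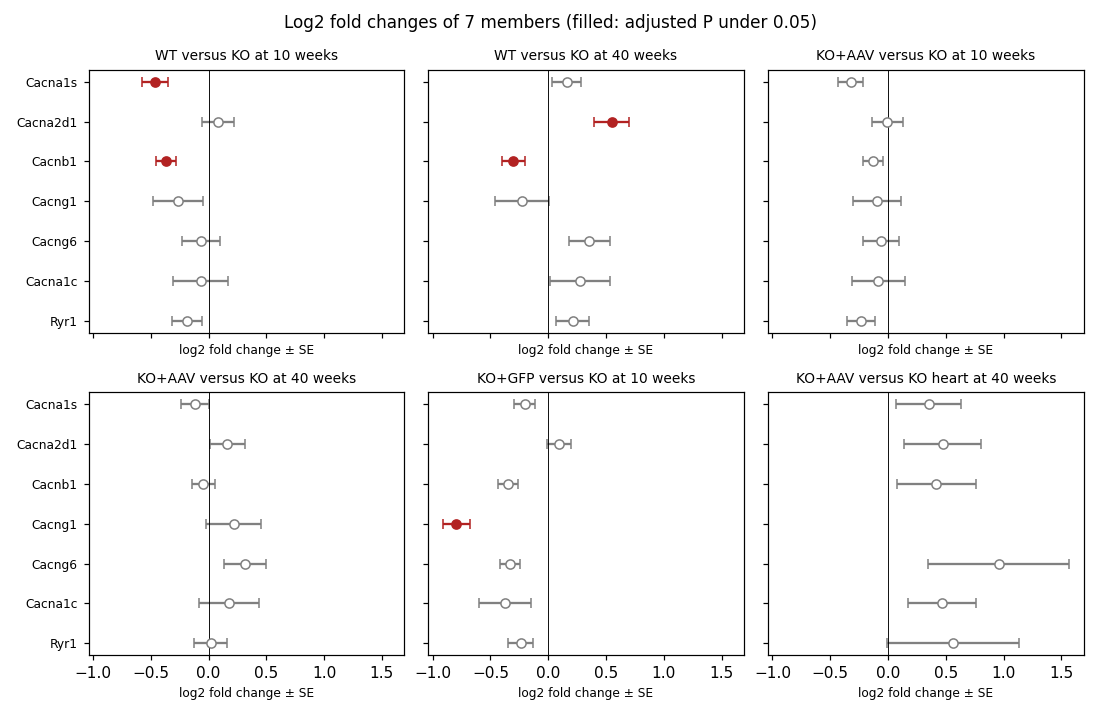
Log2 fold changes with SE of the 7 other members in 6 comparisons, with filled red points for an adjusted P under 0.05. *Cacna1s* and *Cacnb1* at 10 weeks, *Cacna2d1* and *Cacnb1* at 40 weeks and *Cacng1* in the GFP experiment are the filled points; *Cacng1* was too low to test in heart.

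Of the 19 further pore, β, γ and α2δ genes, 11 were tested in gastrocnemius of the main experiment, and 1 of 11 was called in WT against KO at each age, where 8% and 23.5% of all genes were. At 10 weeks *Cacna2d3* (α2δ-3) was higher in WT than in KO, at 16.7 ± 6.59 against 5.48 ± 2.83 normalized counts (1.49, SE 0.38, adjusted P = 0.0112), and the median of the 11 was 0.02. At 40 weeks *Cacna1a*, the α1 subunit of the P/Q-type channel that nerve terminals use, was lower in WT, at 66.3 ± 36.0 against 190 ± 73.4 (-1.57, SE 0.36, adjusted P = 0.00168), and the median was -0.12. When KO replicate 2 was left out the median was -0.31 and *Cacna1i*, a T-type α1 subunit gene, was called as well, higher in WT (3.20, adjusted P = 0.00834). *Cacng7* (γ-7) was higher in WT than in KO+AAV at 10 weeks (1.04, SE 0.29, adjusted P = 0.0277), and *Cacna1a* lower at 40 weeks (-1.24, SE 0.36, adjusted P = 0.0205). None of the 11 was called in KO+AAV against KO at either age. All tests in this and the next 2 paragraphs are limma over all genes.

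Around the channel, the triad and calcium release genes, which build the junction of tubule and sarcoplasmic reticulum, were called for 2 of 18 tested at 10 weeks (8% of all genes) and 6 of 18 at 40 weeks (23.5% of all genes) in WT against KO. *Casq2*, the cardiac and slow-fiber calsequestrin that stores calcium in the reticulum, was lower in WT at both ages, with 176 to 509 normalized counts against 699 to 2928 in KO at 10 weeks (-2.63, SE 0.38, adjusted P = 1.02e-05) and 159 to 545 against 1673 to 5794 at 40 weeks (-3.04, SE 0.41, adjusted P = 2.18e-06). The groups did not overlap at either age. At 40 weeks *Casq1*, the fast-fiber calsequestrin (0.67, adjusted P = 0.0447), *Jph2*, a junctophilin that ties the membranes together (0.87, adjusted P = 0.00777), *Speg*, a kinase of the triad (0.38, adjusted P = 0.00438), and *Fkbp1a*, a partner of the ryanodine receptor (0.26, adjusted P = 0.0391), were higher in WT, and *Mtm1*, a phosphoinositide phosphatase, was lower (-0.56, adjusted P = 0.00437). *Stac3*, which the channel needs for coupling, was not called (-0.09 and 0.29; adjusted P = 0.819 and 0.164; 0.07 at 40 weeks without KO replicate 2), nor was *Jph1* (0.11 and 0.36). Without KO replicate 2 at 40 weeks 4 of the 18 were called, where 3181 of all 16170 genes were. They were *Casq2* (-3.20), *Jph2* (0.55), *Speg* (0.35) and *Mtm1* (-0.55). *Casq1* (0.40, adjusted P = 0.213) and *Fkbp1a* (0.20, adjusted P = 0.139) were not called. The median of the 18 was -0.06 at 10 and 0.16 at 40 weeks (0.09 without KO replicate 2), against -0.01 and 0.01 over all genes.

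Genes of calcium removal, buffering and entry were called for 8 of 21 at 10 weeks (2 higher and 6 lower in WT, where 4.26% and 3.74% of all genes were) and for 13 of 21 at 40 weeks (7 higher and 6 lower, where 12% and 11.5% were). *Itpr1*, an inositol trisphosphate receptor, was higher in WT, with 589 to 933 against 245 to 465 normalized counts at 10 weeks (1.25, SE 0.16, adjusted P = 1.38e-06) and 882 to 1237 against 174 to 301 at 40 weeks (2.16, SE 0.17, adjusted P = 1.07e-10). *Sln*, sarcolipin, an inhibitor of the reticulum calcium pump, was lower in WT, with 6.06 to 19.7 against 22.9 to 96.8 at 10 weeks (-2.26, SE 0.65, adjusted P = 0.0247) and 7.08 to 25.1 against 134 to 2695 at 40 weeks (-6.12, SE 0.71, adjusted P = 1.38e-07). *Mrln*, myoregulin, a further inhibitor of the pump (-1.30, adjusted P = 2.12e-06), *Stim1*, the reticulum calcium sensor of store-operated entry (-0.51, adjusted P = 0.000376), and *Mcu*, the pore of the mitochondrial uniporter (-0.57, adjusted P = 9.76e-05), were lower in WT at 10 weeks. At 40 weeks *Pln*, phospholamban (-2.72, adjusted P = 0.00082), and *Mcu* (-0.66, adjusted P = 2.14e-05) were lower and *Pvalb*, the calcium buffer parvalbumin of fast fibers, was higher (0.95, adjusted P = 0.0191). The pump genes *Atp2a1* (-0.10 and 0.16) and *Atp2a2* (-0.59 and -1.74) were not called at either age (adjusted P = 0.869, 0.653, 0.764 and 0.132). Without KO replicate 2 at 40 weeks 13 of the 21 were again called, where 3181 of all 16170 genes were. *Pvalb* was no longer among them (0.77, adjusted P = 0.0735), and the exchanger *Slc8a1* was. Among 12 genes of calcium-dependent signaling, 2 were called at 10 weeks (8% of all genes), both lower in WT (*Camk2d* -1.0 and *Camk2b* -0.50, adjusted P = 2.4e-07 and 0.00813), and 6 at 40 weeks (3 without KO replicate 2), where 23.5% of all genes were.

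**Figure D4:**
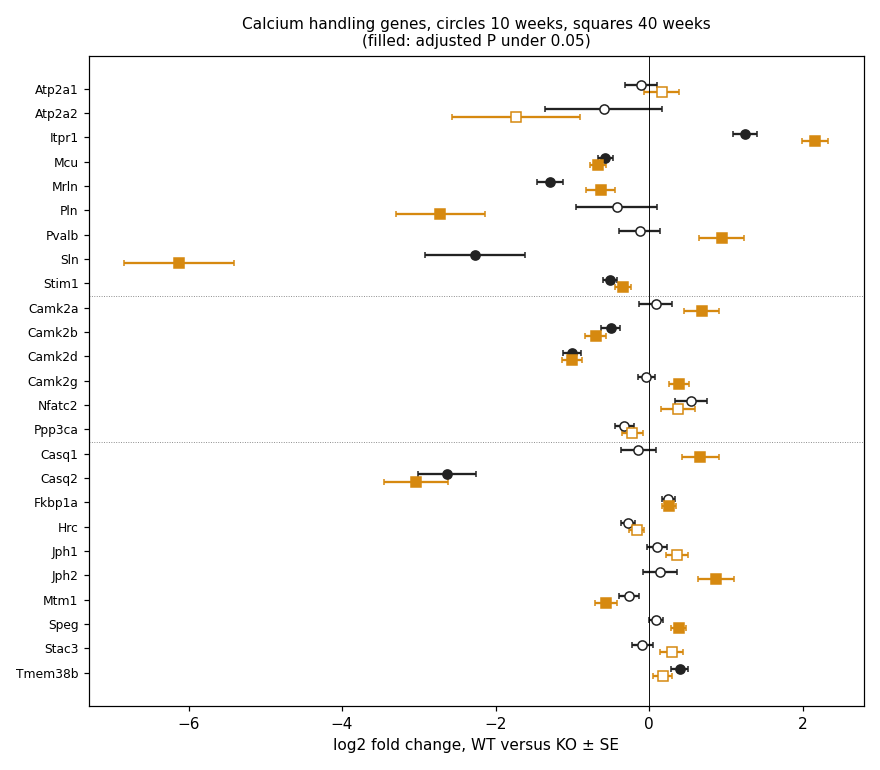
Log2 fold change, WT versus KO in gastrocnemius, with SE, of calcium handling genes at 10 weeks (circles) and 40 weeks (squares), filled where the adjusted P was under 0.05; dotted lines separate calcium removal, buffering and entry (top), signaling (middle) and the triad (bottom). *Casq2* and *Sln* lie to the left (lower in WT) and *Itpr1* to the right at both ages.

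Genes that mark other fibers and cells moved in some of the same comparisons, and their part in the values above was not tested. The summed counts of the 6 slow-fiber genes had medians of 3588 (WT, 1012 to 14247), 13275 (KO, 712 to 48771) and 2540 (KO+AAV, 1659 to 30299) at 10 weeks and 4303 (626 to 19698), 24943 (6831 to 116786) and 3533 (1840 to 25507) at 40 weeks. The groups overlapped widely, single libraries such as KO replicate 3 at 40 weeks (116786) set the upper ends, and none of the 6 genes was called in any genotype comparison of the main experiment. The most abundant was *Myl3* in both WT groups and *Myh7* in both KO groups. Of the 6 tested denervation and junction genes, *Chrna1*, an acetylcholine receptor subunit, was lower in WT than in KO at 10 weeks (-1.32, adjusted P = 1.09e-05; 3.74% of all genes were lower), and *Chrna1*, *Myog*, *Runx1* and *Ncam1* were lower at 40 weeks (-1.55, -1.83, -2.15 and -1.15; 11.5% of all genes were lower), the age at which *Cacna2d1* was higher and *Cacna1a* lower in WT. Their summed counts were 751 ± 72.9 in WT and 1183 ± 158 in KO at 10 weeks and 822 ± 29.5 and 1708 ± 516 at 40 weeks. *Chrnd*, a further receptor subunit, was called as well when KO replicate 2 was left out (-1.04, adjusted P = 0.0356). In the same fit *Musk*, the most abundant gene of this list in both WT groups (means of 308 and 419), went the other way. It was not called (0.55, adjusted P = 0.226, limma). Of the cardiomyocyte genes, *Myh6* held 13.6 to 46.1 normalized counts and *Myl7* 0 to 0.281 as group means, whereas *Actc1*, the cardiac actin that developing skeletal muscle also uses, made up nearly all of the list's sum, with means of 5174 (WT), 14277 (KO) and 27456 (KO+AAV) at 10 weeks and 492.9, 2971 and 2877 at 40 weeks. At 10 weeks the 6 macrophage genes summed to 1089 ± 889 in KO+AAV (781 without replicate 5, the highest) against 500.5 ± 321 in WT and 487 ± 169 in KO. The sum of the 5 fat genes had medians of 592 (WT), 629 (KO) and 791 (KO+AAV) at 10 weeks, where KO+AAV replicate 4 stood at 5572. At 40 weeks its medians were 1623 (336 to 1994), 431 (243 to 801) and 499 (244 to 1018), most abundant *Cfd* throughout. In WT against KO at 40 weeks 2 of the 5 fat genes were called, both higher in WT (12% of all genes), and the median log2 difference of the 5 was 1.83. *Lep*, the hormone leptin, held 228 ± 174 normalized counts in WT and 2.95 ± 3.64 in KO (5.82, adjusted P = 2.3e-06, limma) and was also higher in WT than in KO+AAV (4.11, adjusted P = 0.000572, limma), and *Adipoq*, adiponectin, held 213 ± 162 against 40.3 ± 23.9 (2.06, adjusted P = 0.0273, limma).

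KO+AAV was compared with KO for the same lists, where 0.204% of all genes were called at 10 weeks and 0.259% at 40 weeks. At 10 weeks *Mrln* was lower in KO+AAV (-0.79, SE 0.16, adjusted P = 0.0247), the sole call among the lists of channel, triad, removal and signaling genes, and at 40 weeks none of their genes was called; without KO replicate 2 *Mcu* was (-0.47, adjusted P = 0.0154, limma). WT against KO+AAV gave calls for, among others, *Casq2*, again lower in WT (-2.32 at 10 and -2.48 at 40 weeks, adjusted P = 9.31e-05 and 8.39e-05), *Itpr1*, higher in WT (1.17 and 1.59, adjusted P = 5.55e-06 and 1.22e-07) and, at 40 weeks, *Sln*, lower in WT (-6.59, adjusted P = 9.37e-08).

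The GFP experiment asks what the virus alone does in KO muscle. Its table was normalized on its own, so levels are not set beside those of the main experiment. *Cacna2d4* stayed at 4.50, 0.826 and 3.53 normalized counts in KO+GFP and 0.993, 1.14 and 4.15 in KO controls, which is 1 to 4 reads per library, too low to test. *Lrtm2* held 2.25, 5.78 and 2.64 in KO+GFP and was at 0 in all 3 controls, likewise too low to test. *Arntl* held 150, 70.2 and 123 against 113, 119 and 121.

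*Cacng1* was lower with the GFP virus, at 1498, 1592 and 1522 normalized counts against 2214, 2673 and 3222 in the controls. The groups did not overlap, and the control mean was 1.76 times that of KO+GFP (-0.80, SE 0.12, adjusted P = 0.00371, limma). It was 1 of 7 tested members called, where 3.09% of 14477 genes were. *Cacna1s*, *Cacnb1*, *Cacng6* and *Ryr1* did not pass the test. Their KO+GFP libraries lay below their controls, but the share of all genes that separate 3 from 3 libraries was not counted. Of all 14477 genes 2713 had an unadjusted P under 0.05 by limma. *Cacna1s* held 10333, 9551 and 10135 against 11675, 12309 and 10663 (-0.21, adjusted P = 0.249). *Cacnb1* held 1569, 1296 and 1502 against 1862, 1870 and 1817 (-0.35, adjusted P = 0.0552). *Cacng6* gave -0.33 (adjusted P = 0.0645) and *Ryr1* -0.24 (adjusted P = 0.262). *Cacna2d1* overlapped (0.10, 95% interval -0.20 to 0.39). The median of the 7 was -0.33 against 0.00 over all genes.

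In the same comparison 265 of all 14477 genes tested were called higher in KO+GFP and 183 lower, the background for the list counts given here. Genes of slow and mixed fibers were higher in KO+GFP, with 4 of 6 slow-fiber genes called (*Myl3* 1.99, *Myl2* 2.56, *Tnnt1* 3.01 and *Tnnc1* 4.22). Their summed count was 8807 to 12260 against 672, 787 and 5487 in the controls, most abundant *Myh7*. *Myh2* (1.63) and *Myh1* (1.29), myosins of other fast fibers, were called higher, and the fast *Myh4* gave -0.60 (adjusted P = 0.0946). Of 6 macrophage genes 4 were higher (*C1qa*, *C1qb*, *Csf1r*, *Adgre1*), summing to 411 ± 44.3 against 183 ± 29.7, and *Mbp*, a myelin gene of Schwann cells, was lower, at 104 ± 11.9 against 288 ± 38.8 (-1.46, adjusted P = 0.000299, limma). *Casq2* (0.93, adjusted P = 0.00259) and *Atp2a2*, the pump of slow fibers and heart (1.40, adjusted P = 0.0448), were higher, and *Jph1* (-0.55, adjusted P = 0.00793) and *Camk2a* (-0.54, adjusted P = 0.0242) lower, all by limma. Whether *Cacng1* follows the fiber genes was not tested.

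In heart *Cacna1c* stood above *Cacna1s* and *Cacnb2* above *Cacnb1*, while *Cacna2d1* was abundant in both tissues. Over the 8 hearts *Cacna2d1* held 15 RPKM and *Cacna1c* 12.6, with *Cacnb2*, the main cardiac β gene, at 4.35, *Cacna1s* at 2.91 and *Cacnb1* at 1.65, and *Ryr2*, the cardiac ryanodine receptor, at 66.3. Without KO heart replicate 2 these levels were 16.4, 13.7, 4.73, 3.11, 1.80 and 72.1. *Cacna2d4* held 0 to 2.46 normalized counts in KO and 0 to 2.63 in KO+AAV, or 0 to 3 reads, and *Cacng1* 0 to 9.98, so neither was tested, and *Cacna2d4* was not detectable above a few reads in either group at this depth.

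None of the 6 tested members was called in KO+AAV against KO hearts, where 0% of 18089 genes were called by limma (232 at an unadjusted P under 0.05, and 0 called by edgeR or DESeq2). Their log2 differences ran from 0.35 to 0.96, all higher in KO+AAV, with adjusted P = 0.862 for each. *Cacna1c* held 11693, 4916, 13341 and 9153 normalized counts in KO and 11408, 12903, 12230 and 14270 in KO+AAV, a log2 difference of 0.47 (95% interval -0.24 to 1.18). The low value is replicate 2, the library with *Alb* at 859141, and without it the difference was 0.17. The 6 differences then ran from 0.08 to 0.51, and none was called.

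The genes whose pattern over the 34 gastrocnemius libraries was most like that of *Cacna2d4* were *Oplah* (5-oxoprolinase, Pearson r = 0.93 on the log2 scale after removing the site difference), *Yaf2* (0.92), *Mreg* (0.92), *Psd3* (0.92), *Slc25a30* (a mitochondrial carrier, 0.92) and *Gm10032* (0.91). The lowest r was that of *Rab11b* (-0.96), *Prpf19* (-0.93) and *Gm17251* (-0.91). The libraries share genotype groups, so these values describe groups more than single libraries. *Oplah* held 833 ± 93.4 normalized counts in WT at 10 weeks, 290 ± 30.5 in KO and 398 ± 53.4 in KO+AAV, and *Rab11b* 1059 ± 139, 2149 ± 192 and 1641 ± 128. *Gm10032* came closest in depth of the difference, with 37.2 ± 14.5 (WT), 0.063 ± 0.153 (KO) and 1.93 ± 1.59 (KO+AAV) normalized counts at 10 weeks, and was at 0 in all 5 KO libraries at 40 weeks.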

How the data were processed

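RNA from the tissues was sequenced as poly(A) libraries; per the study's methods and the submitters' processing notes, reads were aligned with HISAT2 2.2.1 to GRCm38 and counted per gene with HTSeq. The annotation release and the strand setting are not given in the sources used here. The deposited values (unit: signal) are gene counts that the authors divided by 1 DESeq2 size factor per library. Whole reads could be recovered from them (100% of values within 0.1 of a whole number in all 72 libraries). Of 55401 genes, 99.53% matched GENCODE vM21.

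Genes with a mean normalized count above 5 were tested with limma 3.58.1 (trend, R 4.3.3) on log2(normalized count + 1), with 6 groups and the sequencing site in 1 model for gastrocnemius and separate models for the GFP experiment and heart. P values were adjusted by Benjamini-Hochberg over all genes, and called means an adjusted P under 0.05. A positive log2 difference means higher in the first-named group. Labels do not state that libraries of a group come from separate animals, so P values measure the spread between libraries. Alternatives were edgeR 4.0.16 and DESeq2 1.42.0 on recovered reads, a pseudocount of 0.5, no filter, no site term, single sites, a replicate block and leaving out each library of groups of up to 5; edgeR called 1335 genes for WT versus KO at 10 weeks and 3598 at 40 weeks, against 1296 and 3804 by limma. Comparisons that share a group share its libraries. The members and gene lists were chosen with earlier results of these data known. By rule, the text names the members, *Arntl*, up to 4 genes of each list with the smallest P in a comparison, fixed coupling genes (*Stac3*, *Jph1*, *Jph2*, *Casq1*, *Atp2a1*, *Atp2a2*, *Sln*, *Pln*, *Pvalb*), genes within 500 kb of *Cacna2d4* and the 6 highest and 3 lowest in likeness; other genes, such as *Per3*, *Nr1d2*, *Dbp* and further called list genes, were chosen after their values were seen. The change with age, the count tests without the second KO heart, the list counts without KO replicate 2 at 40 weeks and the marker sums without the highest library were chosen after seeing the data. Values of some list genes are not reported here.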

Additional observations from a re-analysis of the deposited data

Results flagged for a closer look

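Within groups of 4 to 10 libraries, 9 of 80 sets of values held a library that lay apart from the others by Dixon's test, where chance gives about 1 in 20. *Cacnb1* was at 2001.4 normalized counts in KO+AAV replicate 2 at 40 weeks, against 2820 to 3077 in the others. WT replicate 4 at 10 weeks was low in both γ subunit genes, with *Cacng1* at 1894 (others 3052 to 3742) and *Cacng6* at 1758 (2531 to 2689). *Ryr1* was high in WT replicate 2 at 10 weeks, at 92834 (76184 to 81389). In the same library *Lrtm2* was at 116 (18.2 to 49.6), and *Lrtm2* was at 8.27 in KO replicate 5 at 40 weeks (0 to 1.79). *Cacng1* was at 3.69 in KO heart replicate 1 and at 0 in the other KO hearts. *Arntl* was at 480 in WT replicate 5 at 40 weeks (571 to 608) and at 1039 in KO replicate 2 at 40 weeks (308 to 395).

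Lung, which enters no comparison above, held both genes of the *Cacna2d4* locus in mice without *Bmal1*. *Cacna2d4* had a median of 332 normalized counts over the 8 lung libraries of KO and KO+AAV mice (257 to 675, at least 223 reads in each), and *Lrtm2* a median of 1231 (793 to 2820, at least 757 reads). No WT lung was analysed here, and levels are not comparable with gastrocnemius, since each tissue was normalized on its own.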

How the results depend on the processing

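The differences of *Cacna2d4* between WT and each of KO and KO+AAV at 40 weeks kept their direction and their call under every alternative run, from 6.10 to 6.58 and from 4.44 to 5.44 with each library left out in turn, and KO+AAV versus KO stayed uncalled (0.92 to 1.93). Depth limits the values of *Cacna2d4* in the KO groups, where a library held 0 to 14 reads.

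Among the 7 other members, the number called became 0 at Novogene alone for WT versus KO at 10 weeks and for age in KO, and 1 with the replicate block for WT versus KO+AAV at 10 weeks (*Cacnb1*, adjusted P = 0.0412). It became 2, counting *Cacna2d4*, with DESeq2 or the block for WT versus KO+AAV at 40 weeks (*Cacnb1*, adjusted P = 0.0448 and 0.0334), 1 without a filter or with edgeR for age in KO, 1 without the site term for age in KO+AAV, 2 without a filter or with DESeq2 for GFP (*Cacnb1*, adjusted P = 0.0496 and 0.0345), and 1 with DESeq2 for the change of the WT versus KO difference with age (*Cacna1s*, adjusted P = 0.0275). With single libraries left out it ran from 1 to 2 for WT versus KO+AAV at 40 weeks (2 without WT replicate 5 or KO+AAV replicate 2), from 0 to 2 for age in KO (0 without KO replicate 2), from 0 to 1 for age in KO+AAV (1 without KO+AAV replicate 3) and from 0 to 1 for the change with age (1 without KO replicate 5 at 40 weeks).

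Of all genes, 301 were called at Novogene alone and 557 at ICBR alone for WT versus KO at 10 weeks (1296 in all libraries). For WT versus KO+AAV at 10 weeks (834) the counts were 86, 307 and, with DESeq2, 1396, and for KO+AAV versus KO (33) they were 5, 3 and 147. DESeq2 called 79 for KO+AAV versus KO at 40 weeks (42) and 63 for age in WT (24), where Novogene alone gave 4. For age in KO (1346), no filter gave 848 and Novogene alone 392, and for age in KO+AAV (1382), no site term gave 2088 and Novogene alone 367. DESeq2 without the second KO heart called 3. With single libraries left out the ranges were 26 to 75 for KO+AAV versus KO at 40 weeks, 7 to 29 for age in WT, 471 to 1838 for age in KO (471 without KO replicate 2), 703 to 1400 for age in KO+AAV (703 without KO+AAV replicate 2), 108 to 646 for GFP (448; 108 without KO+GFP replicate 3) and 24 to 197 for the change with age (60; 206 with DESeq2, 0 at Novogene). The causes were not tested; smaller subsets hold fewer libraries.

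A change of sign occurred in 55 combinations of member, comparison and alternative, all 55 with no call in either fit. The sign turned with DESeq2 for *Cacna2d1* 0.00746, *Cacna1c* 0.0248 in KO+AAV versus KO at 10 weeks, *Cacng1* -0.0129 in the WT versus KO difference at 40 minus 10 weeks, *Cacna1c* -0.10 in WT versus KO+AAV at 10 weeks. The sign turned at ICBR for *Cacna2d1* 0.11, *Cacng1* 0.14, *Cacng6* 0.0413 in KO+AAV versus KO at 10 weeks, *Cacna1c* -0.13, *Ryr1* -0.13 in WT versus KO+AAV at 10 weeks. The sign turned at Novogene for *Cacng6* 0.0833, *Ryr1* 0.0556 in 40 versus 10 weeks in KO+AAV, *Cacna2d1* 0.0251, *Cacng6* -0.0031 in 40 versus 10 weeks in WT, *Cacna2d1* -0.0555, *Cacna1c* 0.0718, *Ryr1* 0.00667 in WT versus KO at 10 weeks, *Cacng1* -0.0423 in the WT versus KO difference at 40 minus 10 weeks, *Cacna1s* 0.0683, *Cacng1* 0.19, *Cacng6* 0.12 in WT versus KO+AAV at 10 weeks. The sign turned with edgeR for *Cacna2d1* 0.00454, *Cacna1c* 0.0203 in KO+AAV versus KO at 10 weeks, *Ryr1* -0.00417 in KO+AAV versus KO at 40 weeks, *Cacng1* -0.0229 in the WT versus KO difference at 40 minus 10 weeks, *Cacna1c* -0.10 in WT versus KO+AAV at 10 weeks. The sign turned without the site term for *Cacng6* 0.0564 in 40 versus 10 weeks in KO+AAV, *Ryr1* -0.0408 in 40 versus 10 weeks in WT. The sign turned with the replicate block for *Cacna2d1* 0.0211, *Cacng6* 0.00411 in KO+AAV versus KO at 10 weeks, *Cacng1* -0.0225 in the WT versus KO difference at 40 minus 10 weeks. With single libraries left out, the sign turned for *Cacng6* in WT versus KO+AAV at 40 weeks (-0.025 to 0.10), *Cacna1c* in WT versus KO+AAV at 40 weeks (-3.44e-04 to 0.22), *Cacnb1* in KO+AAV versus KO at 40 weeks (-0.12 to 0.0675), *Ryr1* in KO+AAV versus KO at 40 weeks (-0.11 to 0.0891), *Cacng6* in 40 versus 10 weeks in WT (-0.00608 to 0.11), *Cacna2d1* in 40 versus 10 weeks in WT (-0.10 to 0.0613), *Cacng6* in 40 versus 10 weeks in KO+AAV (-0.0426 to 0.0619), *Ryr1* in 40 versus 10 weeks in KO+AAV (-0.0656 to 0.0589), *Cacna2d4* in the WT versus KO difference at 40 minus 10 weeks (-0.22 to 0.25), *Cacng1* in the WT versus KO difference at 40 minus 10 weeks (-0.11 to 0.13), *Cacnb1* in the WT versus KO difference at 40 minus 10 weeks (-0.0117 to 0.12). The replicate numbers were not used as pairs in the main fits. No comparison had every same-numbered pair correlated above 0.1 (-0.472 to 0.57 over the 8 comparisons). The most pairs above 0.1 were 3 of 5, in WT versus KO at 10 weeks and KO+AAV versus KO at 40 weeks. This rule cannot exclude a weak or partial pairing, and the study's methods describe the WT controls as littermates. In the GFP experiment 3 of 3 samples correlated best with their own number (0.02 to 0.067), a hint from the data and not from the design.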
